A study of Mus musculus with 4 samples.

Results

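Peaks of Smad1 ChIP–seq were collected around the genes of the BMP ligands Bmp2, Bmp3, Bmp4, Bmp5, Bmp6, Bmp7, Bmp8a, Bmp8b, Bmp10 and Gdf2. Every peak of the 5 deposited lists that lay within 20 kb of one of these 10 gene bodies was taken, with gene models from GENCODE M21 on mm10. This gave 29 of the 76539 listed peaks, and 26 of them remained when the common DMSO sites, which repeat intervals of another list, were set aside. Merged where they overlapped, they formed 16 regions at 8 of the 10 genes. No list had a peak within 20 kb of Bmp8b or Gdf2.

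Chromatin was prepared from embryoid bodies (EBs), clusters of differentiating ES cells. The cells were GFP-Bry ES cells, a line labelled C57BL/6 that carries GFP knocked into the Bry (Brachyury) locus in all groups. Day 3 EBs were dissociated and reaggregated in either 10 µM IWR-1, which inhibits canonical Wnt signalling, or its solvent DMSO, and were collected 24 h later, on day 4. The labels name no sort of the cells, so a peak is a value over all cell types of the EB, and the lists hold no expression values by which its makeup could be checked. Each treatment had 1 Smad1 ChIP library and 1 input library, so treatments could be set side by side but not tested.

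Labels and lists did not match. The common DMSO list and the DMSO MACS list were filed under the input of the DMSO culture, and the DMSO QESEQ list under the input of the IWR-1 culture. Their own names give DMSO. By coordinates, all 10466 common sites are intervals of the DMSO QESEQ list and overlap the DMSO MACS list. Of these sites, 2701 overlap the second MACS list. That second list is filed under the Smad1 ChIP of the DMSO culture, but its own name gives IWR-1, and it is read as IWR-1 here. Its coordinates place it there by elimination only. The IWR-1 QESEQ list is filed under the Smad1 ChIP of the IWR-1 culture and is used first. A missing peak means that a place did not pass a caller's threshold in that library. Depth per peak is unknown, because the lists give positions without read counts.

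BMP ligands are secreted dimers that bring together type I and type II serine/threonine kinase receptors. The type I receptor phosphorylates Smad1, Smad5 and Smad9, which enter the nucleus with Smad4 and bind GC-rich and CAGA-type elements at target genes. BMP signalling is needed for the formation and patterning of mesoderm and for its blood and heart derivatives.

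Common DMSO sites, which both callers listed, lay near 2 of the 10 ligand genes, Bmp5 and Bmp6, with 1 site at Bmp5 and 2 at Bmp6. All 3 sites were in intron 1. Genomic sequence of these sites is shown first, because they are the places at ligand genes on which both callers of the DMSO library met. Sequences here are from NCBI's GRCm38.p6, the assembly of mm10, are written 5′ to 3′ on the plus strand, and hold no UTR bases of the ligand gene. Capitals mark runs of at least 7 A or 7 T and any of the searched motifs, which are given further on. For Bmp5 the whole common site is printed, and for Bmp6 300 bp around the middle of each common site.
Bmp5 intron 1 site, chr9:75821406-75821686: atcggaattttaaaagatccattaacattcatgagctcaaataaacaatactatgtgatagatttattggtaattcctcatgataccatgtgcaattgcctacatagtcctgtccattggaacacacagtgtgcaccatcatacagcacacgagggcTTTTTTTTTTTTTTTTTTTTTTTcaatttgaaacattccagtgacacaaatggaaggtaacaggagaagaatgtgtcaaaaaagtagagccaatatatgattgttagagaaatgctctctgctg
Bmp6 proximal intron 1 site, chr13:38353529-38353828: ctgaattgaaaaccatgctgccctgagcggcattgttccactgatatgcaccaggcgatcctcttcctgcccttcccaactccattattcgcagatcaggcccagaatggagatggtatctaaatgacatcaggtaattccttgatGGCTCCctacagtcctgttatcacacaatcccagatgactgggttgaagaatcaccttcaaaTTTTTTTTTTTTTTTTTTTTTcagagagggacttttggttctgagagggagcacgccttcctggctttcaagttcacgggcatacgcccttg
Bmp6 distal intron 1 site, chr13:38386906-38387205: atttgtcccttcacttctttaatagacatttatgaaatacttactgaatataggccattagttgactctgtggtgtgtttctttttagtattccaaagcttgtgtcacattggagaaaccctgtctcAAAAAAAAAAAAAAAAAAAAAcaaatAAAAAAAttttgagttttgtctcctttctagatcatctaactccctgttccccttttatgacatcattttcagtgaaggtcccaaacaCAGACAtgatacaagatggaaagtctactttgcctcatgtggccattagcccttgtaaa
Each of the 3 sites carried a homopolymer run, 23 bases long at Bmp5 and 21 bases long at both Bmp6 sites. The proximal Bmp6 site also shows a GC-rich Smad element in capitals, on the minus strand, and the distal Bmp6 site shows a CAGA-type Smad element.

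The next sequences are of regions that were called in other ways and were chosen after their values had been seen. The Bmp5 upstream region, of which 300 bp are printed, was missing from the DMSO MACS list and present in the other 3 lists of a single caller. Regions at Bmp2, Bmp4 and Bmp7 were called by IWR-1 QESEQ alone, and the 100 bp at their middle are printed. The last pair, also of 100 bp, are the regions with the most repetitive sequence, at Bmp8a and Bmp10.
Bmp5 upstream region, chr9:75772778-75773077: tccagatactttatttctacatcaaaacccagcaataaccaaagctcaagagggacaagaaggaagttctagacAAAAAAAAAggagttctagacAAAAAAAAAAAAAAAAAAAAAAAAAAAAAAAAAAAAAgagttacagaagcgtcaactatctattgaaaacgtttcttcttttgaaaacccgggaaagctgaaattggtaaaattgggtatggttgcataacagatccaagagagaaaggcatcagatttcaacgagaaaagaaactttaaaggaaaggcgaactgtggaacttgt
Bmp4 intron 2 region, chr14:46386761-46386860: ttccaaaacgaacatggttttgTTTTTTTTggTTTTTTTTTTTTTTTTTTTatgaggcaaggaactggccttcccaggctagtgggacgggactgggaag
Bmp4 upstream region, chr14:46394218-46394317: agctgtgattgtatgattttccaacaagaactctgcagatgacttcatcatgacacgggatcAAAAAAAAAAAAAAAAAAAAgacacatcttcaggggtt
Bmp2 upstream region, chr2:133541538-133541637: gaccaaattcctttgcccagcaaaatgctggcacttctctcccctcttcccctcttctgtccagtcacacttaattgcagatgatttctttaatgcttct
Bmp7 intron 1 region, chr2:172919417-172919516: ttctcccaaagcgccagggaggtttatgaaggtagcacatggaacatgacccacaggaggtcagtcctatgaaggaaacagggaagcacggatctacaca
Bmp8a intron 3 region, chr4:123321172-123321271: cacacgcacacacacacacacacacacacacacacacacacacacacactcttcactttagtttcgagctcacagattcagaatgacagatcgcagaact
Bmp10 downstream region, chr6:87457598-87457697: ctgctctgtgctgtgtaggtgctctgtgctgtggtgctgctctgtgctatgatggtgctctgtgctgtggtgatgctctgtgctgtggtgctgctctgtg
Long runs of A or T stand in the Bmp5 and Bmp4 regions, and none in the Bmp2, Bmp7, Bmp8a and Bmp10 regions. The Bmp8a region holds a CA repeat and the Bmp10 region a tandem repeat of short units.

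Common DMSO sites were found near 2 of 10 ligand genes, against 35.1% of all 21938 protein-coding genes. DMSO MACS had a peak near 5 of the 10 (all coding genes, 44.2%), and DMSO QESEQ near 3 (60.2%). With IWR-1, QESEQ had a peak near 5 of the 10 (47.2%), and the second MACS list near 3 (26.8%). Any list had a peak near 8 of the 10 (71.7%). With 10 genes, 1 gene is 10 percentage points, and no count stood more than about 3 genes from the level of all coding genes.

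**Figure D1:**
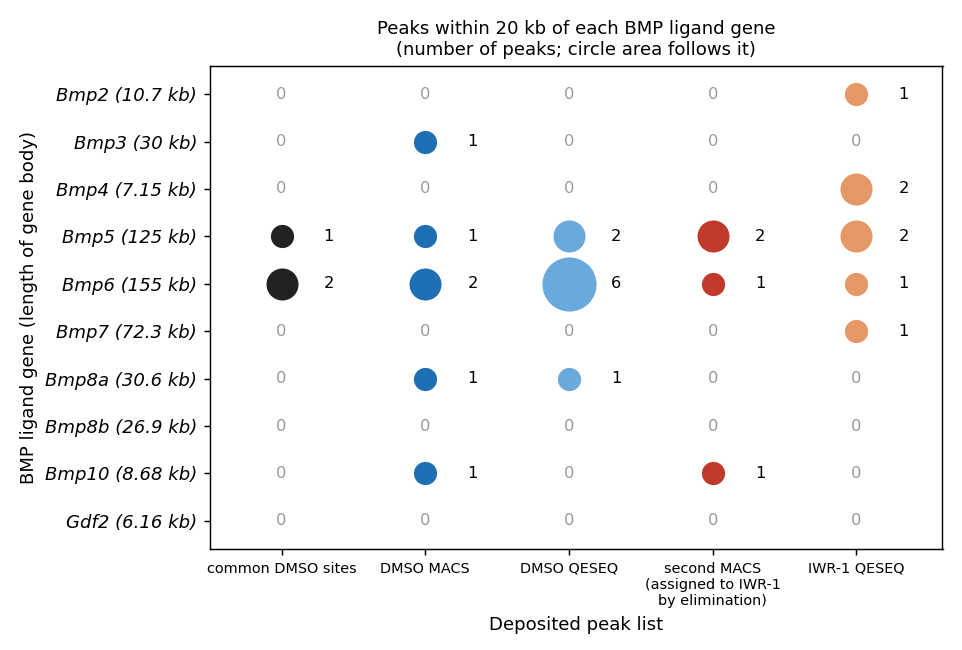
Number of peaks within 20 kb of each BMP ligand gene (vertical axis, with the length of the gene body) in each of the 5 deposited lists (horizontal axis), with circle area following the number. Bmp5 and Bmp6 carry peaks in all 5 lists, Bmp2, Bmp4 and Bmp7 only in the IWR-1 QESEQ list, and Bmp8b and Gdf2 in none.

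The ligand genes differ in length, from 6.16 kb for Gdf2 to 155 kb for Bmp6, and the genes with common sites were the longest of the 10. Peaks were therefore also counted per Mb of gene body with its 20 kb flanks. The 10 ligand windows covered 0.873 Mb and held 3.44 common sites per Mb, against 5.04 in the windows of all coding genes and 3.84 in the genome. DMSO QESEQ gave 10.3 peaks per Mb at ligands and 12.8 at coding genes, and DMSO MACS gave 6.88 and 7.23. IWR-1 QESEQ gave 8.02 and 8.07, and the second MACS list 4.58 and 3.52. No density at the ligands was as much as 1.5 times above or below that of coding genes. The nearest common site lay at a median of 117 kb from a ligand gene and of 45.5 kb from a coding gene.

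By treatment, 12 of the 16 regions had a DMSO peak and 8 an IWR-1 peak. Both treatments gave a peak at 4 regions, DMSO alone at 8 and IWR-1 alone at 4. This split of merged regions was not counted over the whole series. The DMSO lists are also longer, with 26070 (QESEQ) and 15927 (MACS) peaks, against 16261 (IWR-1 QESEQ) and 7815 (second MACS). When the second MACS list was left out, 7 regions had an IWR-1 peak, 3 of them with a DMSO peak, and DMSO alone stood at 9. By caller, 9 regions were listed by QESEQ only, 3 by MACS only and 4 by both. At ligands, 6 of 9 DMSO QESEQ peaks lay outside the DMSO MACS list, against 14877 of 26070 over the whole list. In turn, 3 of 6 DMSO MACS peaks lay outside the DMSO QESEQ list, against 4746 of 15927. Of the 16 regions, 11 were in 1 of the 4 single-caller lists, and 2 were in all 4. Merged regions were not counted by caller or by number of lists over the whole series either. Whether these splits are usual for the lists is therefore not known.

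Of the 16 regions, 10 lay inside the ligand gene, and all of these were in introns of its main transcript, 7 of them in intron 1. A further 4 lay upstream and 2 downstream, and 0 overlapped an exon of the ligand's main transcript. Exons of its other transcripts were not checked. No region stood at the start of a main transcript: 0 had their centre within 1 kb of the start of the main transcript, and 4 within 5 kb, at Bmp3, at Bmp4 (both regions) and at Bmp5. The nearest, upstream of Bmp5, was centred 2397 bp away. Most of the intron 1 regions were at Bmp6, whose intron 1 runs from 1.48 kb to 124.507 kb after the start of a 155 kb gene. Neither the share of the windows in each part nor that of all peaks was counted. No preference for introns or against starts is read from these counts.

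Bmp5, Bmp6 and Bmp7 belong to a subgroup of BMP ligands with similar sequence and overlapping roles in the heart, limb and kidney. Bmp5 (ENSMUSG00000032179) spans 75775364 to 75900310 on the plus strand of chromosome 9 and had 8 peaks in 2 regions. Its common site in intron 1, from 75821406 to 75821686, lay in a region centred 46.1 kb downstream of the transcript start. The DMSO MACS peak there ran from 75821364 to 75821737 with a score of 77.46, at percentile 72 of its list. The MACS score is the authors' own value per peak and starts at 50 in both lists, and percentiles count the peaks of the same list at or below it. Under IWR-1, QESEQ placed a peak at 75821284 to 75821670, and the second MACS list one at 75821462 to 75821721. The score of the latter was 50.89, at percentile 5.03, so this peak stood just above the lower limit of that list.

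The other Bmp5 region lay upstream of the gene, centred 2397 bp before the start. DMSO QESEQ called it from 75772728 to 75773209 and IWR-1 QESEQ from 75772748 to 75773208. The second MACS list had it from 75772725 to 75773106 with a score of 77.74, at percentile 75.1, and the DMSO MACS list had no peak there. At Bmp5, the MACS lists thus ranked the regions in different ways, with the intronic site the only one of the DMSO list and the upstream region the higher of the second list. Scores of different lists are not on 1 scale, and whether either region differed between treatments was not tested.

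Bmp6 (ENSMUSG00000039004), best known as a ligand made by liver endothelium that drives hepcidin and so iron balance, spans 38345107 to 38500302 on the plus strand of chromosome 13. It held 12 peaks in 6 regions, the most of the 10 genes. The proximal common site, from 38353446 to 38353911, lay in a region centred 8.58 kb after the start. Its DMSO MACS score was 75.92, at percentile 69.8. Under IWR-1, both the QESEQ peak and the second MACS peak began at 38353547, and they ended at 38353879 and 38353784. The second MACS score was 64.74, at percentile 55.3. This was, with the intronic Bmp5 site, the only ligand region listed by both callers under both treatments.

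The distal Bmp6 site, from 38386890 to 38387221, lay in a region centred 42 kb after the main start and 7364 bp from that of a shorter coding Bmp6 transcript. DMSO MACS scored it 56.01, at percentile 23.2. Neither IWR-1 list had a peak there. DMSO QESEQ alone listed the remaining 4 Bmp6 regions. Of these, 3 were in intron 1, from 38403365 to 38403841, from 38450807 to 38451308 and from 38468757 to 38469482, which is 58.5 kb, 106 kb and 124 kb after the start. The last, from 38507675 to 38508103, was 7373 bp beyond the gene end and overlapped coding exon 6 and introns 5 and 6 of Txndc5, which encodes a protein disulfide isomerase of the endoplasmic reticulum. For this region and the pair at 106 kb and 124 kb, the start of Txndc5 was nearer than that of the main Bmp6 transcript, although the shorter coding transcript starts 56612 bp from the region at 106 kb. In all, 5 of the 6 Bmp6 regions had no peak in either IWR-1 list. Over the whole lists, an IWR-1 QESEQ peak was present at 17.1% of the DMSO QESEQ peaks that the DMSO MACS list lacked, the kind of 4 of these 5 regions, and at 37.0% of common sites, the kind of the other.

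**Figure D2:**
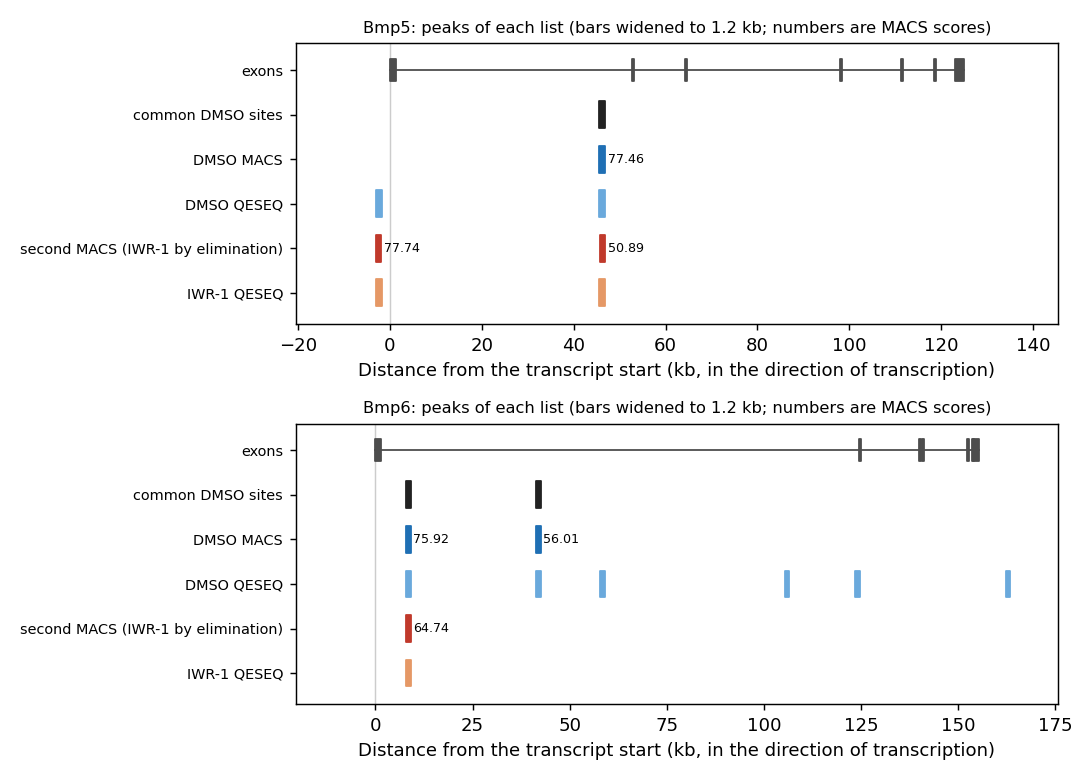
Peaks of the 5 lists (rows) along Bmp5 (upper panel) and Bmp6 (lower panel), with exons in the top row and distance from the transcript start in kb on the horizontal axis. Bars are widened to 1.2 kb and do not show peak width, and printed numbers are MACS scores. The Bmp5 site at 46.1 kb and the Bmp6 site at 8.58 kb appear in every row, and the 4 Bmp6 peaks furthest to the right appear only in the DMSO QESEQ row.

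Bmp7 (ENSMUSG00000008999), needed for kidney and eye development, spans 172868012 to 172940321 on the minus strand of chromosome 2. It had a single peak, called by IWR-1 QESEQ from 172919233 to 172919700 in intron 1, 20.9 kb after the start. Neither MACS list nor the DMSO QESEQ list had a peak at Bmp7, and its nearest common site was 448 kb away.

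Bmp2 and Bmp4, a closely related pair, act in early mesoderm, with Bmp4 needed for mesoderm formation and primitive blood and Bmp2 for heart development. Neither had a DMSO peak within 20 kb, and DMSO QESEQ peaks stood further out, 36.3 kb from Bmp2 and 46.3 kb from Bmp4. Bmp4 (ENSMUSG00000021835) spans 46383520 to 46390669 on the minus strand of chromosome 14 and had 2 IWR-1 QESEQ peaks. The first, from 46386539 to 46387081, lay in intron 2, 3.86 kb after the start of the main transcript. It was also 494 bp from the start of the Bmp4 transcript annotated as a retained intron and 709 bp from the start of the antisense gene Gm15222. The other, from 46394074 to 46394460, lay 3598 bp upstream. Bmp4 was also the ligand gene furthest from a common site, at 793 kb.

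Bmp2 (ENSMUSG00000027358) spans 133552159 to 133562885 on the plus strand of chromosome 2. Its peak, called by IWR-1 QESEQ from 133541342 to 133541832, was centred 10572 bp upstream, and the nearest common site was 284 kb away. The second MACS list had no peak at any of the 4 regions of Bmp2, Bmp4 and Bmp7, so these calls rest on 1 caller and 1 library.

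Bmp3, an atypical member that opposes the action of other BMPs in bone, had 1 peak. The gene (ENSMUSG00000029335) spans 98854415 to 98884396 on the plus strand of chromosome 5. DMSO MACS called the peak from 98850264 to 98850588, centred at -4013 bp relative to the main start, with a score of 50.81 at percentile 3.42. No QESEQ list and no IWR-1 list had a peak there.

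Bmp8a and Bmp8b are neighbouring genes known for roles in the germ line. Bmp8a (ENSMUSG00000032726) spans 123312645 to 123343252 on the minus strand of chromosome 4. Its 2 regions were in intron 3 and were each called once, by DMSO QESEQ from 123318470 to 123318932 and by DMSO MACS from 123320983 to 123321460. The MACS score of 50.33, at percentile 1.39, was the lowest of the 6 DMSO MACS peaks. Both regions were nearer to the start of Oxct2a, a gene for a testis succinyl-CoA transferase that lies within this intron, at 4.93 kb and 2.41 kb, than to that of Bmp8a, at 24.1 kb and 21.6 kb.

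Bmp8b (ENSMUSG00000002384), from 123105165 to 123132099 on the plus strand of chromosome 4, had no peak within the limit, and neither did Gdf2. Gdf2 (ENSMUSG00000072625) encodes BMP9, which signals in endothelium through Acvrl1 and endoglin, and spans 33941039 to 33947198 on the plus strand of chromosome 14. The nearest peak of any list was 29.8 kb from Gdf2, in the IWR-1 QESEQ list. For Bmp8b it was a DMSO MACS peak at 21.9 kb with a score of 65.7, followed by a common site at 24.9 kb, so Bmp8b fell just outside the distance limit.

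Bmp10 (ENSMUSG00000030046), a ligand of the developing heart, spans 87428994 to 87437677 on the plus strand of chromosome 6 and lay just inside the limit. Its region began 19465 bp beyond the gene end. DMSO MACS called it from 87457142 to 87458145 with a score of 143.3, at percentile 95.2, and the second MACS list from 87457149 to 87458204 with 177.08, at percentile 93.8. These were the highest scores at a ligand gene in either list, and no QESEQ list called the region. The next peak of Bmp10, of DMSO QESEQ, was at 24 kb.

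**Figure D3:**
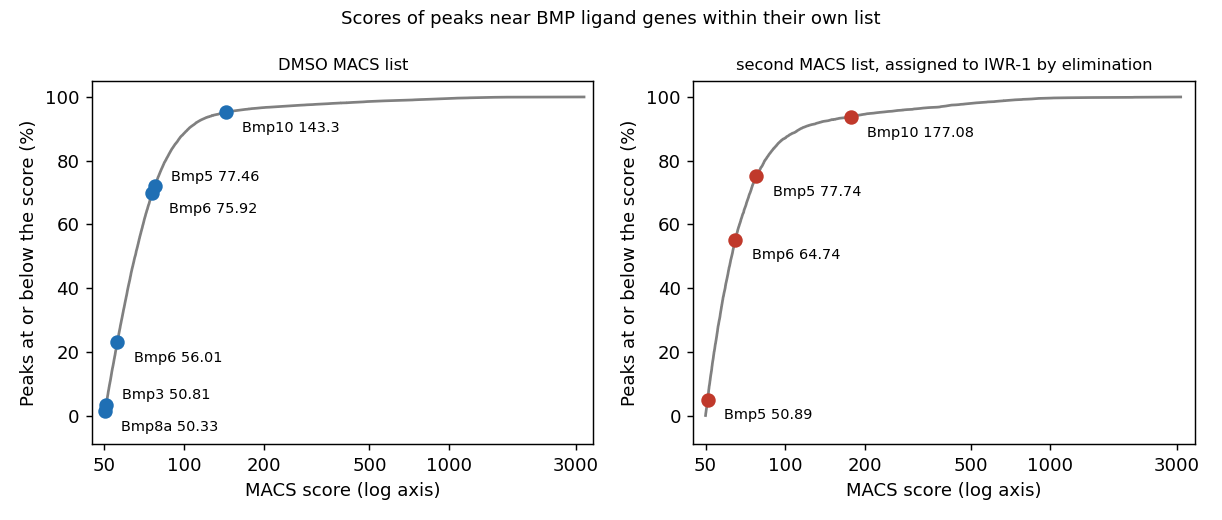
MACS score (horizontal log axis) of each peak near a BMP ligand gene against the share of all peaks of the same list at or below it (vertical axis, %), for the DMSO MACS list (left) and the second MACS list (right), with the grey line over all peaks of the list. The Bmp10 peaks sit highest, at 143.3 and 177.08, and Bmp3 and Bmp8a sit at the lower limit of the DMSO list.

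Calls under IWR-1 were then counted over the peaks. Of the 3 common sites at ligands, 2 had an IWR-1 QESEQ peak, a share of 66.7% with an exact binomial (Clopper-Pearson) 95% interval of 9.43% to 99.2%, against 37.0% of all common sites. The same 2 sites had a second MACS peak, against 25.8% of all. Intervals cover counting error over sites only. Among DMSO QESEQ peaks that the DMSO MACS list lacked, 1 of 6 had an IWR-1 QESEQ peak (all such peaks, 17.1%), which was the Bmp5 upstream region. Among DMSO MACS peaks that the DMSO QESEQ list lacked, 1 of 3 had a second MACS peak (33.0%), which was at Bmp10. Of the 7 IWR-1 QESEQ peaks at ligands, 4 lay outside both DMSO lists (52.9%), at Bmp2, Bmp4 and Bmp7, and 0 of these 4 were in the second MACS list (12.0%). Each of these counts has 3 to 7 peaks behind it, and the share over all peaks lay inside the exact interval of every one.

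Sequence elements were searched by their letters on both strands over the whole of each region. The GC-rich Smad elements GGCGCC and GGAGCC, the CAGA-type elements GTCTAGAC and CAGACA, the TCF/LEF words CTTTGAT and CTTTGTT, the GATA word AGATAA and the AP-1 word TGACTCA were used. No word contains another, and no match overlapped another in these regions. A match is a description of the letters and not evidence of binding. GGAGCC was in 5 regions, at Bmp4, Bmp6 (3 regions) and Bmp8a, and CAGACA in 6, at Bmp2, Bmp4, Bmp6 (3 regions) and Bmp7, where it occurred 2 times. GGCGCC and GTCTAGAC were in 0, and in at most 2.39% and 0.418% of all peaks of a single-caller list. In all, 9 of the 16 regions held a Smad element. Over all peaks, one was in 47.4% of DMSO QESEQ, 42.3% of DMSO MACS, 48.7% of IWR-1 QESEQ and 35.0% of second MACS peaks. GGAGCC was in 13.5% (second MACS) to 20.0% (IWR-1 QESEQ) of the peaks of a list, and CAGACA in 24.9% to 36.4% of the same lists. A merged region can be wider than the peaks in it. AGATAA was in 5 regions, TGACTCA in 2, at Bmp4 and Bmp6, CTTTGTT in 1, at Bmp6, and CTTTGAT in 0.

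Of the 3 common sites, both Bmp6 sites held a Smad element and the Bmp5 site held none of the 8 words searched, against 44.2% of all common sites with a Smad element. Over all common sites, CAGACA was in 32%, GGAGCC in 17.4%, GGCGCC in 2.66% and GTCTAGAC in 0.411%. AGATAA was in 21.1%, CTTTGTT in 11.9%, CTTTGAT in 7.47% and TGACTCA in 6.68%. Of the 7 IWR-1 QESEQ peaks at ligands, 4 held a Smad element, at Bmp2, Bmp4, Bmp6 and Bmp7, against 48.7% of that list.

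Runs of A or T were the feature most regions shared, and most peaks of every list hold them too. Of the 16 regions, 12 had a run of at least 7, and in these the longest run was 18 to 37 bases, with its middle at a median of 49 bp from that of the region. The upstream Bmp5 region held the longest, 37 A on the plus strand from 75772873 to 75772909. All 3 common sites at ligands had such a run, as did 90.3% of all common sites, in which the median longest run was 25 bases. By treatment, runs were in 7 of 8 regions of DMSO alone, 3 of 4 of both and 2 of 4 of IWR-1 alone. Over all peaks, a run of at least 7 was in 79.8% of DMSO QESEQ and 89.5% of DMSO MACS peaks. With IWR-1 it was in 69.9% of QESEQ and 77.2% of second MACS peaks. Runs of 18 or more bases were in 77.4% of common sites, 77.2% of DMSO MACS, 63% of DMSO QESEQ, 63% of second MACS and 52.8% of IWR-1 QESEQ peaks, so the lists themselves differed in this feature. No common site would be left at a ligand gene if sites with a run of 7 were set aside. The part of these runs in the calls was not tested.

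**Figure D4:**
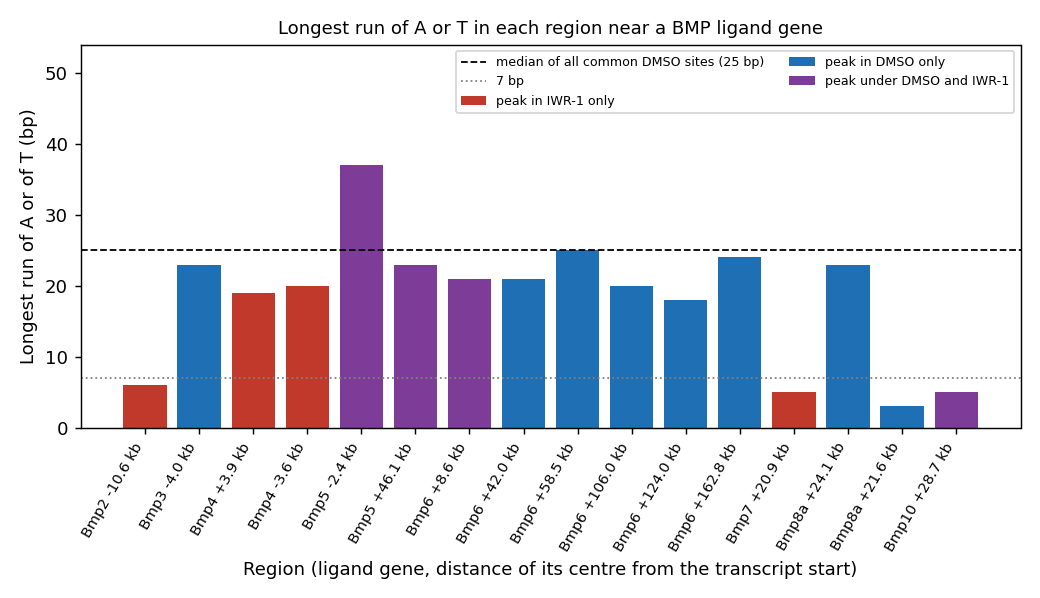
Longest run of A or of T in bases (vertical axis) in each of the 16 regions (horizontal axis, ligand gene and distance of the centre from the transcript start in kb), coloured by the treatment whose lists called the region. The dashed line is the median of all common DMSO sites, 25 bases, and the dotted line marks 7. Regions at Bmp2, Bmp7, Bmp8a (the one 21.6 kb from the start) and Bmp10 lie below 7, and the others at 18 or above.

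The regions without a run were unlike each other. Those at Bmp2 and Bmp7 had longest runs of 6 and 5 bases, and 0% of their 12-base words repeated an earlier word of the region. The Bmp8a region called by MACS held a CA repeat of 42 bp, and 30.2% of its 12-base words were repeated. At Bmp10 the region was 1063 bp wide, the widest of the 16, and 75.9% of its 12-base words were repeated, while the masking of the assembly covered 0% of it. The median of this share was 4.31% over the DMSO MACS list and 5.65% over the second MACS list, and 1.56% and 3.24% of their peaks reached 50%. The highest MACS scores at a ligand gene thus stood over a tandem repeat that neither QESEQ list called, and whether the repeat bears on these scores was not tested.

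Other genes of the pathway were counted by the same 20 kb rule. Receptors and co-receptors had a common site near 9 of 10 genes, all but that of Acvr2b, a type II receptor, with 11.7 sites per Mb of window. These 9 were the type I receptors Acvr1, Bmpr1a, Bmpr1b and Acvrl1, the type II receptors Bmpr2 and Acvr2a, and the co-receptors Eng, Rgma and Rgmb. The other ligands of the TGF-beta family, such as Nodal, Lefty1, Lefty2 and Inhba, had one near 11 of 23 genes (8.7 per Mb). Id genes, classical BMP targets, had one near 3 of 4 (17.5 per Mb), Smads near 3 of 8 (4.94) and secreted antagonists near 5 of 16 (5.46). For common sites, the BMP ligands, with 2 of 10 and 3.44 per Mb, had the lowest share and density of the 6 lists. The exact binomial interval of this share, 2.52% to 55.6%, holds the 35.1% of all coding genes. Their share was also the lowest with DMSO QESEQ peaks, at 3 of 10, but not with peaks of the other callings. DMSO MACS peaks were near 5 of 10 BMP ligands and 3 of 8 Smads. IWR-1 QESEQ peaks were near 5 of 10 BMP ligands and 8 of 23 other ligands. Second MACS peaks were near 3 of 10 BMP ligands and 1 of 8 Smads. Gene length differs between the lists, with a median body of 28.5 kb for BMP ligands, 66.8 kb for receptors and 2.8 kb for Id genes, and the difference between lists was not tested.

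With IWR-1, QESEQ had a peak at 2 of the 3 common sites of BMP ligands, 6 of 16 of receptors, 4 of 10 of other ligands, 2 of 4 of Smads, 3 of 3 of Id genes and 0 of 7 of antagonists, against 37.0% of all common sites. The shares of receptors and other ligands stood near that level, and the remaining lists hold 3 to 7 sites each. For Gdf2, which had no peak, its receptor gene Acvrl1 had 1 common site and its co-receptor gene Eng had 2. Antagonists of Bmp2, Bmp4 and Bmp7 were split, with 0 common sites at Nog (noggin) and Chrd (chordin), which had 1 and 4 DMSO QESEQ peaks, and 1 at Grem1 (gremlin).

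**Figure D5:**
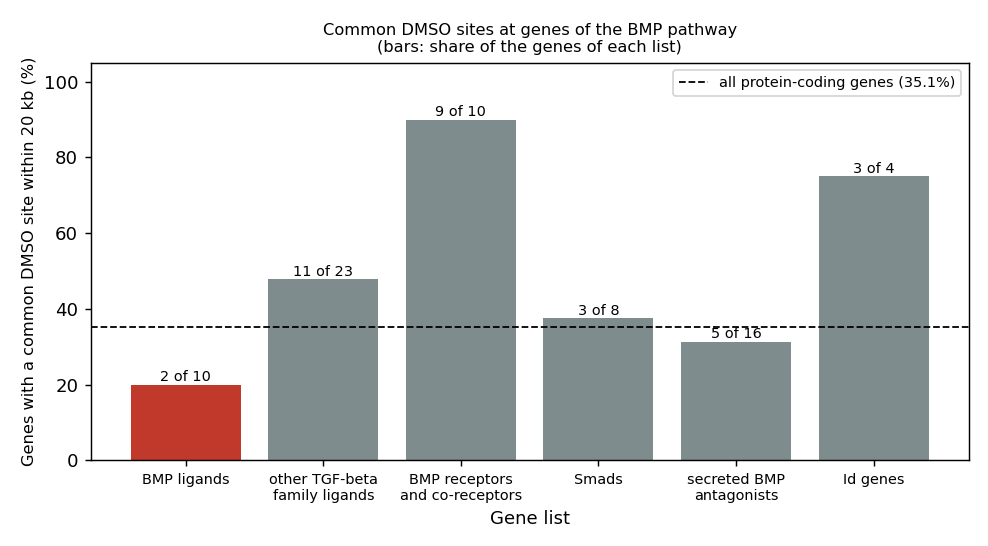
Share of genes with a common DMSO site within 20 kb (vertical axis, %) for BMP ligands (red) and 5 other lists of pathway genes (grey), with the number of genes above each bar and the share of all protein-coding genes, 35.1%, as a dashed line. BMP ligands, at 2 of 10, are the lowest bar and receptors, at 9 of 10, the highest.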

How the data were processed

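The data were 4 libraries, a Smad1 ChIP and an input from each of the DMSO and IWR-1 cultures. The submitters' processing notes name CASAVA 1.8, Bowtie2 2.1.0, MACS 1.0.1 and mm10, and per the study's methods duplicates were removed and peaks called with MACS and QESEQ. The 5 deposited lists hold positions, and the MACS lists also hold the score that the authors took from MACS. This score was used only to rank peaks within a list. QESEQ positions were read like those of MACS, since their counting base is not given in the sources used here, and all positions are printed counted from 1.

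A peak belonged to a ligand when its nearest edge was within 20 kb of the GENCODE M21 gene body, and calls were matched by an overlap of at least 1 bp. Members, gene lists and tests were chosen with earlier results of these data known. Genes named were all 10 ligands, neighbours whose start was nearer or that a peak overlapped, and, beyond that rule, pathway genes picked after their counts were seen. Printed sequences were to be the middle 100 bp of each common site; longer stretches and other regions were added after seeing the data. Peak lists from 1 library allow no test between treatments, and shares are given beside those of all genes or sites. One listed co-receptor gene, Hjv, was not matched by symbol. Scripts ran in Python 3.11.15; sequences were read with pysam 0.24.0, intervals taken from scipy 1.17.1, and figures drawn with matplotlib 3.10.9. Overlap, motif and run steps were tested on simulated data and gave the right answer in all of 2000 cases each. The overlap cases included intervals that did not overlap. Alternatives covered distance, caller, score, overlap, A or T runs and the assignment of the second MACS list, the last chosen after seeing the data. Expression data were not used here.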

Additional observations from a re-analysis of the deposited data

How the results depend on the processing

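The counts at BMP ligand genes are small. Ligand genes with a common DMSO site numbered 2, and became 4 with a 50 kb window, 5 with the MACS list alone, and 0 when only sites with a score of at least 100 were kept or sites with a run of 7 A or T were left out. Common sites near ligands numbered 3, and became 5 with a 50 kb window, 6 with the MACS list alone, 9 with the QESEQ list alone, and 0 under the score limit or without sites holding a run. Common sites with an IWR-1 call numbered 2 of 3, and 0 were left without sites holding a run. With a 50 kb window they also numbered 2, but of 5 common sites, so the count held and the share fell. The other 16 of 26 alternatives stayed within 1.5 times the reported count. They covered a 10 kb window, the peak centre, the other IWR-1 lists, 50% overlap, the central 200 bp and the peaks of IWR-1 alone, also with the second MACS list read as DMSO. The loss without runs follows from all 3 sites holding one, and the loss under the score limit from their scores of 77.46, 75.92 and 56.01. The 50 kb window added the common sites 24.9 kb from Bmp8b and 44.4 kb from Bmp8a. For the other changes the cause was not tested. Depth per peak is unknown.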
